A study of Rattus norvegicus with 6 samples.

Results

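The 10 genes described here encode the actins of the cytoplasm and of muscle and the small proteins that bind actin monomers: the beta-thymosins *Tmsb4x* and *Tmsb10*, the cytoplasmic actins *Actb* and *Actg1*, the muscle actins *Acta2* and *Actc1*, the profilins *Pfn1* and *Pfn2*, and the cofilins *Cfl1* and *Cfl2*. They were chosen by gene symbol with the mRNA levels of this series already known, and the muscle actins were included as a contrast. All 10 were listed among the 17337 gene names in the mRNA tables. Since the levels served to choose the genes, the order of the levels and the differences between replicates are given as a description, and no p-value was computed.

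The material was untreated neural progenitors cultured from the cortices of Sprague Dawley rats at embryonic day 14. Cells were grown with bFGF and EGF, which are mitogens for neural progenitors, and collected after a second passage. Cells came from embryos of either sex. PolyA-selected mRNA of biological replicate A was sequenced in the technical libraries A1 and A2, and that of replicate B in B1 and B2. There was 1 condition, so the comparisons below set genes against each other within a library, replicate A against replicate B, and technical libraries of the same replicate against each other.

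Actin exists as monomers (G-actin) and as filaments (F-actin), and cells move actin between these forms to shape the cell cortex, divide and migrate. Beta-thymosins hold monomers in reserve, profilins bind monomers and deliver them to growing filament ends, and cofilins sever filaments and so return monomers to the pool. In the developing cortex this cycle is used by dividing progenitors at the ventricular surface and later by growth cones and migrating neurons. Beta- and gamma-actin are found in nearly every cell, whereas alpha smooth muscle actin (*Acta2*) marks smooth muscle, pericytes and myofibroblasts, and alpha cardiac actin (*Actc1*) marks heart and embryonic skeletal muscle.

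Levels of mRNA are in FPKM, fragments scaled to transcript length and library depth, so that levels can be set against each other between genes. Technical libraries were averaged first, and each mean ± SD is over the 2 biological replicates. Total read numbers were not used here, but the coverage that corresponds to 1 FPKM, a measure of depth, was 24.3 and 22.7 in A1 and A2 against 24.4 and 6.83 in B1 and B2, so that B2 had 28.1% of the depth of B1. No interval for counting error can be given without counts. Neural progenitor markers were abundant in every library. The summed FPKM of 8 of them was 20949 and 23046 in A1 and A2 against 10054 and 10810 in B1 and B2. *Fabp7* made up most of this sum, and without it the sums were 4149 and 4489 against 3534 and 5324, mostly from *Vim*, which mesenchymal cells also express. *Sox2* was at 558 and 592 against 406 and 356 FPKM and *Hes5* at 397 and 400 against 197 and 162. Of the 8, 4 were higher in A without overlap, where 32.0% of all genes were, and 4 overlapped. *Fabp7* and *Hes5* were at least 2-fold higher in A, as 1.57% of all genes were. Summed FPKM of 10 mesenchymal and meningeal markers (collagens, *Pdgfra*, *Twist1* and others) was 653 and 637 in A1 and A2 against 2521 and 3041 in B1 and B2. In RNA of a whole culture, fewer cells of a type and less RNA per cell cannot be told apart. Of 5 neuronal markers that averaged 1 FPKM or more, 3 were higher in A, 0 in B and 2 overlapped, and *Dcx* was at 10.6 and 12.7 against 7.81 and 7.64 FPKM. The part of these marker differences in the differences described below was not tested.

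The level of the 10 genes reached from 6819 FPKM on average down to below 1. *Tmsb4x* was highest and ranked 2 among all gene names by mean FPKM, *Tmsb10* ranked 6 and *Actb* ranked 8. *Cfl1*, *Pfn1* and *Actg1* followed at ranks 46, 62 and 86. *Pfn2*, *Cfl2* and *Acta2* lay lower, at ranks 914, 2533 and 3064, and *Actc1* lay at rank 12260. Summed over the 10 genes, the share of all TPM (a unit of transcripts that adds up to the same total in each library) was 2.88% and 3.03% in A1 and A2 against 2.62% and 2.75% in B1 and B2, and *Tmsb4x* alone took 1.34%, 1.43%, 0.984% and 0.835%.

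**Figure D1:**
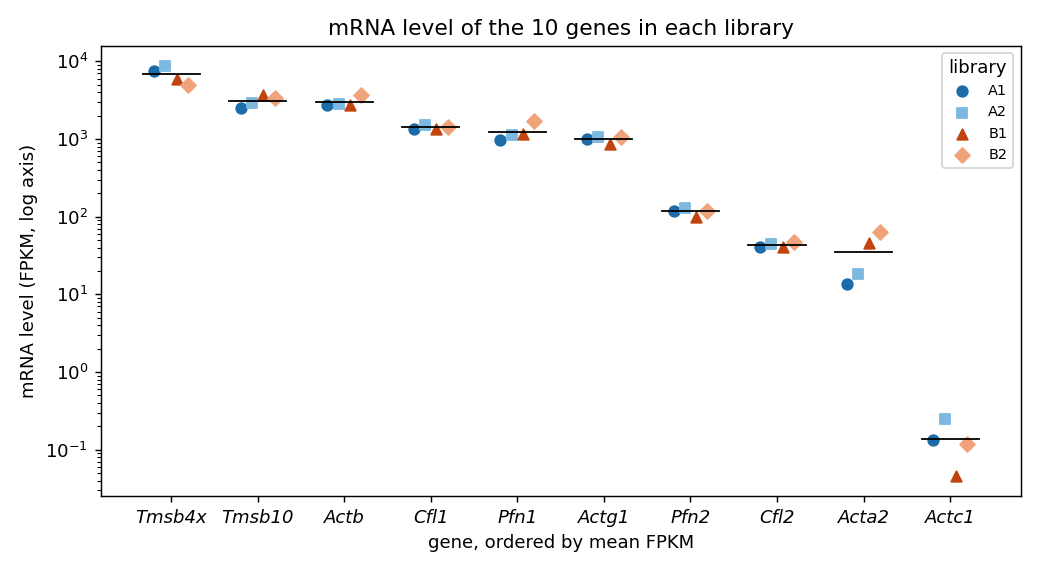
FPKM of each of the 10 genes on a log axis, with 1 point per library (A1 and A2 in blue, B1 and B2 in orange) and a bar at the mean of the biological replicates. *Tmsb4x* lies at the top in all 4 libraries, *Tmsb10* and *Actb* change places between libraries, and *Actc1* lies below 1 FPKM throughout.

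The order of neighbours was not the same in every library. *Tmsb4x* was the highest and *Actc1* the lowest of the 10 in all 4 libraries, and *Pfn2* was at place 7 in all 4. *Tmsb10* was above *Actb* in A2 and B1 and below it in A1 and B2, so the levels of these genes do not differ beyond their spread. *Cfl1* was above *Pfn1* in A1, A2 and B1 and below it in B2. *Pfn1* was above *Actg1* in A2, B1 and B2 and below it in A1, where *Actg1* holds an uncertain second row described below; without that row *Pfn1* was above *Actg1* in all 4. *Cfl2* was above *Acta2* in both libraries of replicate A and below it in both libraries of replicate B.

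Promoter sequences of 3 actins and both thymosins are shown first, because SRF, a transcription factor that responds to the pool of free actin monomers, is known to bind the CArG box in promoters of actin genes. Of the 10 genes, 9 had a promoter in the RefSeq table of the GRCr8 assembly that was used, all but *Actb*. The 140 bases just before the annotated start of transcription are printed 5′ to 3′ on the strand of the gene for 5 of them, and for *Actg1l1*, a copy of *Actg1* discussed below. Capitals mark a CArG box (CC, then 6 bases that are A or T, then GG), a CArG box in which 1 of the 6 central bases is C or G, or the letters TATAA. The windows are chrX:30761471-30761610 (plus strand) for *Tmsb4x*, chr4:106569141-106569280 (minus) for *Tmsb10*, chr10:106120952-106121091 (minus) for *Actg1*, chr1:241172504-241172643 (minus) for *Acta2*, chr3:121271828-121271967 (minus) for *Actc1* and chr3:93433905-93434044 (plus) for *Actg1l1*.
Tmsb4x: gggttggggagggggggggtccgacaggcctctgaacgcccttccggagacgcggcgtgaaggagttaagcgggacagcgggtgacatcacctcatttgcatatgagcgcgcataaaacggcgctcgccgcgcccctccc
Tmsb10: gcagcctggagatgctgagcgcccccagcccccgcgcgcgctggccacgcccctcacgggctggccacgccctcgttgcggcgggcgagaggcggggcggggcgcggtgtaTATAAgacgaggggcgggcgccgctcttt
Actg1: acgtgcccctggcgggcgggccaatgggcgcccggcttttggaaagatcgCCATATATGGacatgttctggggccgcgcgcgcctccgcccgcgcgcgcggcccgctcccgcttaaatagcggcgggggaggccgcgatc
Acta2: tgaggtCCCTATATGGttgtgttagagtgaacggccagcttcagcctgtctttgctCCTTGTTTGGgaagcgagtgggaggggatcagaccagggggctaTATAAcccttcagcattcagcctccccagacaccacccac
Actc1: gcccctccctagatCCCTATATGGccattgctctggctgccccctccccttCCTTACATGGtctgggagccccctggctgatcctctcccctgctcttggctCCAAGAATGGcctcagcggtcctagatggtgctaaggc
Actg1l1: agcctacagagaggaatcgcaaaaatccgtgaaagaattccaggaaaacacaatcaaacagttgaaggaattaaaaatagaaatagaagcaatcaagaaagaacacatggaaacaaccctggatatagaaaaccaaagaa

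In the 250 bases before the start, *Actg1* held 1 CArG box, which begins at base -90 (base -1 is the one just before the start). *Acta2* held no CArG box but held 2 with 1 central C or G, at bases -134 and -84, and the letters TATAA at base -40. *Actc1* held 3 CArG boxes with 1 central C or G, at bases -126, -89 and -38. Searched in the same way on both strands, a CArG box was present in 1.5% of 33469 RefSeq promoters, and the form with 1 central C or G in 6.84%. *Tmsb4x*, *Tmsb10*, *Pfn1*, *Pfn2*, *Cfl1* and *Cfl2* held neither form in this window. TATAA, in 24.0% of promoters on either strand, was present in *Tmsb10*, at base -29, and *Acta2*. The letters GGGCGG, the core of the GC box, were present in 30.5% of promoters on either strand. They occurred 6 times in *Actg1*, 4 times in *Cfl2*, 3 times each in *Tmsb10* and *Pfn2* and 2 times each in *Pfn1* and *Cfl1*, and not in *Tmsb4x*, *Acta2* or *Actc1*. GC content of the 250 bases was between 54.0% (*Acta2*) and 79.2% (*Actg1* and *Pfn2*), above the median of 51.2% over all promoters for 9 of the 9 genes. These matches describe letters only and say nothing of factor binding in these cells.

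*Tmsb4x* (chromosome X of rn6, 28593405 to 28595395, plus strand) encodes thymosin beta-4, the main monomer-holding peptide of most mammalian cells. Its FPKM was 7615 and 8621 in A1 and A2 against 6021 and 5020 in B1 and B2. Both libraries of replicate A were above both of replicate B, with a mean of 6819 ± 1836 (SD, n = 2) and a level 1.47-fold higher in A. *Tmsb10* encodes thymosin beta-10, a close relative common in embryonic tissue, and lies on chromosome 4 (100882216 to 100883275, minus strand). Its FPKM was 2541 and 2914 in A1 and A2 against 3685 and 3381 in B1 and B2. The libraries again did not overlap, but in the other direction, with a mean of 3130 ± 569 (SD, n = 2) and a level 1.3-fold higher in B. The ratio of *Tmsb4x* to *Tmsb10* within a library was 3.0 and 2.96 in A1 and A2 against 1.63 and 1.48 in B1 and B2. A further thymosin, listed as *Tmsbl1* and named *Tmsb15b2* in RefSeq, was at 154, 180, 156 and 154 FPKM in A1, A2, B1 and B2.

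*Actb*, on chromosome 12 of rn6 (13715843 to 13718813, plus strand), encodes cytoplasmic beta-actin. Its FPKM was 2706 and 2795 in A1 and A2 against 2715 and 3709 in B1 and B2. A1, A2 and B1 lay close together and B2 stood above them, so that the gap between the technical libraries of replicate B (993 FPKM) exceeded the gap between the replicate means (462 FPKM). *Actg1* encodes cytoplasmic gamma-actin, and its FPKM was 1014 and 1058 in A1 and A2 against 863 and 1064 in B1 and B2, with a mean of 1000 ± 51.0 (SD, n = 2). B1 was the low library and the replicates overlapped. *Actb* exceeded *Actg1* by 2.67-fold and 2.64-fold in A1 and A2 against 3.15-fold and 3.48-fold in B1 and B2, a mean of 2.98 ± 0.466 (SD, n = 2).

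The level of *Actg1* is a sum over 2 rows of that name. The row on the minus strand of chromosome 10 of rn6, from 109518433 to 109521288, gave 742, 761, 632 and 801 FPKM in A1, A2, B1 and B2. The row on chromosome 3 (75643054 to 75644956, plus strand) gave 273, 297, 231 and 264 FPKM, which was 26.9%, 28.1%, 26.8% and 24.8% of the sum. The rows next to it, *Olr569* and *Olr575*, are odorant receptor genes that in RefSeq (GRCr8) are named *Or5w22* and *Or5w11* and have *Actg1l1* between them. *Actg1* and *Actg1l1* have the same letters at 50 of the 50 bases after the start, but at 44 of the 250 bases before it, where GC content is 79.2% for *Actg1* and 35.2% for *Actg1l1*. Reads from near-identical copies can be placed at either, so the division between these rows is uncertain. With the chromosome 10 row alone, the ratio of *Actb* to *Actg1* was 4.06 in place of 2.98. RefSeq also names 10 pseudogenes of *Actb*, 11 of *Actg1*, 11 of *Cfl1*, 5 of *Tmsb10*, 2 of *Cfl2* and 1 of *Actc1*. Genes named as copies number 5 for *Tmsb10*, 2 each for *Tmsb4x* and *Actg1* and 1 each for *Cfl1* and *Actb*. Only the last of these, *Actbl2*, is listed in the mRNA tables under its RefSeq name, at 0.00446 FPKM in A1 and at 0 in the other libraries. How the authors' counting treated reads shared with these is not given in the sources used here.

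*Acta2*, on chromosome 1 of rn6 (252537614 to 252550394, minus strand), had an FPKM of 13.6 and 18 in A1 and A2 against 45.5 and 63.2 in B1 and B2, a mean of 35.1 ± 27.2 (SD, n = 2). Every library of replicate B was above every library of replicate A, and the replicate means differed 3.44-fold. *Acta2* made up 0.363% and 0.466% of the summed FPKM of *Actb*, *Actg1*, *Acta2* and *Actc1* in A1 and A2 and 1.3% in both B1 and B2, while *Actb* made up 72.5% and 72.2% against 74.9% and 76.7%. *Actc1*, on chromosome 3 (105507403 to 105512939, minus strand), was at 0.133, 0.249, 0.0461 and 0.118 FPKM in A1, A2, B1 and B2, with a mean coverage between 0.806 and 5.67 reads per base, and no fold is read from it. The remaining muscle actins were also low. *Actg2*, of visceral smooth muscle, was at 0.376 to 1.37 FPKM, and *Acta1*, of skeletal muscle, at 0.152 to 0.236.

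Markers that move with *Acta2* were examined by library. Of 11 smooth muscle and pericyte markers, 6 were below 1 FPKM in every library. The defining marker *Myh11*, smooth muscle myosin heavy chain, was at 1.15, 1.08, 0.850 and 1.27 FPKM in A1, A2, B1 and B2, and *Des* (desmin) was at 0.271 or lower. *Cnn1* (calponin) was at 0.346 and 0.513 FPKM in A1 and A2 against 1.15 and 3.01 in B1 and B2, and *Tagln* (transgelin) was at 695, 793, 593 and 1391 FPKM, high in B2 alone. The summed FPKM of the 11 markers was 752, 840, 643 and 1456, most of it from *Tagln*. *Pdgfrb*, a receptor of pericytes and of mesenchymal cells, was at 21.7, 17.6, 31.5 and 38.3 FPKM, higher in B, and *Notch3* was at 32.7, 26.8, 14.6 and 20.6, higher in A. Of the 5 smooth muscle and pericyte markers that averaged 1 FPKM or more, 2 were higher in B, 1 was higher in A and 2 overlapped, where 28.1% and 32.0% of all genes were higher in B and in A. All 10 mesenchymal and meningeal markers were at least 2-fold higher in B without overlap, against 4.58% of all genes compared, and 9 of the 10 with B2 left out, against 3.65%. Among them, *Col1a1* was at 169, 157, 685 and 785 FPKM and *Pdgfra* at 9.5, 9.09, 59.5 and 59.4. Of 18 striated muscle markers, 11 were below 1 FPKM in every library and 2, *Myf6* and *Tnni1*, were listed at 0 throughout, with sums of 12.4, 11.0, 16.0 and 33.3 FPKM. Of the 7 that averaged 1 FPKM or more, 5 were higher in B, 1 was higher in A and 1 overlapped. *Tnnt2*, at 0.552, 0.461, 3.39 and 11.3 FPKM, and *Myh8*, at 1.62, 1.73, 1.95 and 11.6, were 2-fold higher in B, the latter only with B2 included. *Myh6*, at 2.95, 1.73, 0.877 and 0.418, was 2-fold higher in A. The part of mesenchymal cells in the *Acta2* difference was not tested.

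**Figure D2:**
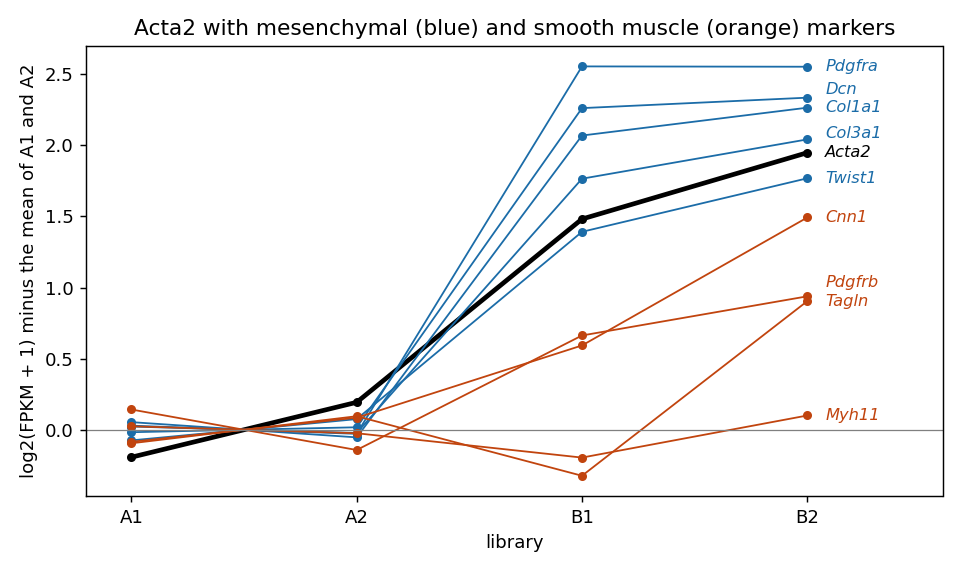
*Acta2* (black) with 5 mesenchymal and meningeal markers (blue) and 4 smooth muscle and pericyte markers (orange), as log2(FPKM + 1) minus the mean of A1 and A2, by library. Lines only join the points of a gene. *Acta2* and the blue genes were above replicate A in both B1 and B2. So were *Cnn1* and *Pdgfrb*, whereas *Tagln* was above it in B2 only. Of the 5 smooth muscle and pericyte markers at 1 FPKM or more, 2 were higher in B, 1 was higher in A and 2 overlapped.

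*Pfn1* encodes the widely expressed profilin, and lies on chromosome 10 of rn6 (57273003 to 57275708, minus strand). Its FPKM was 984 and 1116 in A1 and A2 against 1178 and 1693 in B1 and B2, a mean of 1243 ± 273 (SD, n = 2). Replicate B was 1.37-fold higher with no overlap, but B2 was itself 1.44-fold above B1, and the gap between these technical libraries (515 FPKM) exceeded the gap between the replicate means (386 FPKM). *Pfn2*, the profilin enriched in brain, lies on the minus strand of chromosome 2 from 147953864 to 148050423, a span of 96560 bases that overlaps *Rnf13* on the other strand. Its FPKM was 119 and 130 in A1 and A2 against 100.01 and 119 in B1 and B2. A1 and B2 were nearly equal (119.32 and 119.30 FPKM), so although no library of B reached one of A, the difference did not exceed the spread within a replicate. The ratio of *Pfn1* to *Pfn2* was 8.24 and 8.55 in A1 and A2 against 11.8 and 14.2 in B1 and B2. The deposited coverage of *Pfn2* per FPKM was 0.5 of the library median in all 4 libraries, so its level, its rank and this ratio could differ by as much as 2-fold, in the same way in each library. *Pfn3* and *Pfn4*, known from testis, were at 0.116 FPKM or lower in all libraries.

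*Cfl1* encodes non-muscle cofilin, and lies on chromosome 1 of rn6 (220869805 to 220873337, plus strand). Its FPKM was 1367 and 1533 in A1 and A2 against 1354 and 1450 in B1 and B2, a mean of 1426 ± 33.9 (SD, n = 2). The replicates overlapped. *Cfl2*, the cofilin that predominates in muscle, lies on the minus strand of chromosome 6 from 75759141 to 75763185, and its FPKM was 40.5 and 44.3 in A1 and A2 against 40.2 and 47.4 in B1 and B2, a mean of 43.1 ± 0.977 (SD, n = 2). These replicates also overlapped, and the ratio of *Cfl1* to *Cfl2* was between 30.6 and 34.6 in the 4 libraries. *Dstn*, which encodes the related depolymerizing factor destrin, lay between them at 142, 155, 158 and 151 FPKM.

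**Figure D3:**
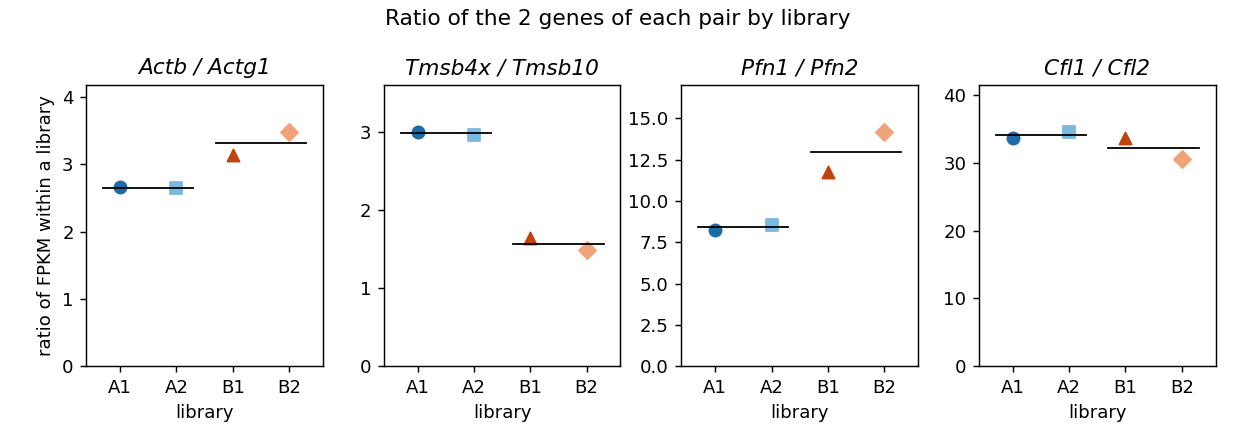
Ratio of FPKM of the 2 genes of each pair within a library, for *Actb* to *Actg1*, *Tmsb4x* to *Tmsb10*, *Pfn1* to *Pfn2* and *Cfl1* to *Cfl2*, with 1 point per library, a bar at each replicate mean and axes starting at 0. The ratio of thymosins was near 3.0 in A and at 1.63 and 1.48 in B, and the ratio of cofilins lay between 30.6 and 34.6 throughout.

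The summed thymosins were set against the sum of *Actb*, *Actg1*, *Acta2* and *Actc1*. Their ratio was 2.72 and 2.98 in A1 and A2 against 2.68 and 1.74 in B1 and B2. B2 was the low library. Thymosins were at 8401 FPKM in B2 and cytoplasmic actins at 4773, against 9706 and 3579 in B1. The profilins were at 0.295, 0.322, 0.353 and 0.375 of the same actin sum in A1, A2, B1 and B2. The cofilins were at 0.377, 0.407, 0.385 and 0.310 of it. These are ratios of mRNA levels, and protein was not measured.

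The members were then read against all genes. At a mean of at least 1 FPKM, 10481 gene names were compared, and *Actc1* was below this level. Of the 9 members above it, 5 had libraries that did not overlap between A and B, against 60.1% of all genes compared. *Tmsb10*, *Pfn1* and *Acta2* were higher in B, where 28.1% of all genes were, and *Tmsb4x* and *Pfn2* were higher in A, where 32.0% were. The overall share is near the background. With B1 or B2 left out, the libraries of 8 of the 9 did not overlap, and neither did those of 88.0% of all genes (without B1) or 84.1% (without B2). With the libraries rescaled by the median ratio over genes, *Pfn2* overlapped and the count was 4 of 9, against 60.2% of all genes. The criterion called 2-fold here asks that libraries do not overlap and that log2(FPKM + 1) differs by 1 or more. It was met by *Acta2* alone, with a difference of 1.71 on that scale (B minus A). It was met by 6.15% of all genes compared, 4.58% higher in B and 1.57% higher in A. The differences of the other 8 members lay between -0.56 for *Tmsb4x* and 0.43 for *Pfn1*, and the median over all genes was -0.03. Since these values were known when the genes were chosen, nothing is read from the counts.

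Technical libraries gave the scale for these differences. B1 and B2 were at least 25% apart for *Actb*, *Acta2* and *Pfn1*, 3 of the 9 members, against 40.3% of all genes compared. A1 and A2 were that far apart for *Acta2* alone, against 11.4% of all genes. For 6 of the 9 members the gap between B1 and B2 was larger than the gap between the replicate means, with *Tmsb4x*, *Tmsb10* and *Acta2* as the exceptions. B2 was above B1 for 7 of the 9 and for 49.1% of all genes, and A2 was above A1 for all 9 and for 57.9% of all genes. The medians over all genes were -0.01 (B2 minus B1) and 0.03 (A2 minus A1) on the log2(FPKM + 1) scale.

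**Figure D4:**
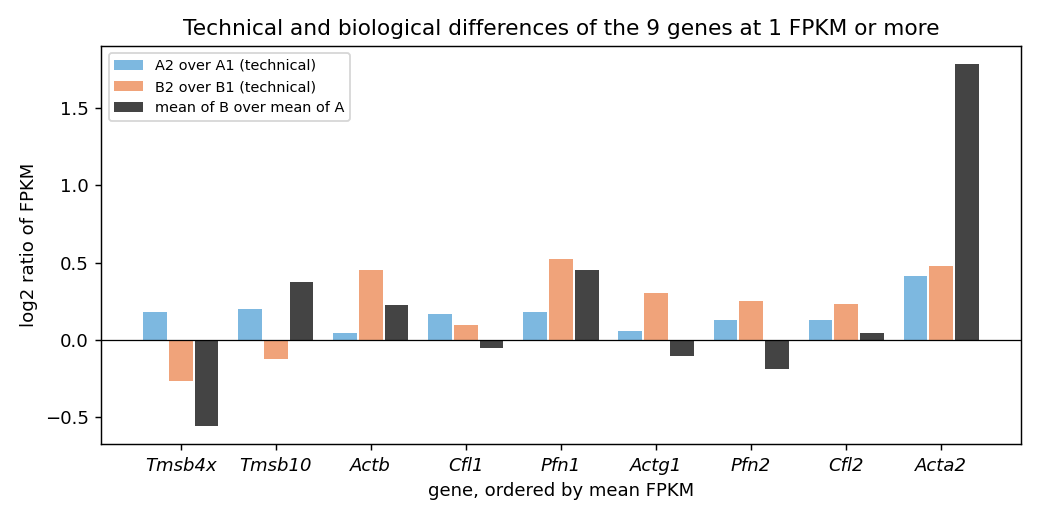
Log2 ratio of FPKM for A2 over A1 (blue), B2 over B1 (orange) and the mean of B over the mean of A (black), for the 9 members at 1 FPKM or more. The black bar exceeds both technical bars in size for *Tmsb4x*, *Tmsb10* and *Acta2*, and lies under the orange bar for *Actb*, *Pfn1*, *Actg1*, *Pfn2*, *Cfl1* and *Cfl2*.

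Genes that act on the same cycle were examined as lists, whose counts are read against the 28.1% of all genes that were higher in B without overlap and the 32.0% that were higher in A. Kinases and phosphatases that switch cofilin off and on (LIM kinases, their activators and slingshots) showed 4 of 12 higher in B, 3 higher in A and 5 overlapping, near the shares of all genes, and 0 were 2-fold apart. *Tesk1*, the highest of them, was at 25.5, 23.8, 25.9 and 27.6 FPKM in A1, A2, B1 and B2, and *Limk1* was at 23.9, 24.9, 25.4 and 25.3. Further monomer-binding and disassembly factors showed 3 of 14 higher in B, 3 higher in A and 8 overlapping, with 0 at 2-fold. Among them, *Cap1*, which recharges actin monomers with ATP, was at 97.8, 110, 134 and 118 FPKM, *Wdr1*, a cofactor of cofilin, was at 116, 124, 113 and 118, and the coronins differed in direction. *Coro1b*, the highest of the list, was at 123, 130, 139 and 145, higher in B, and *Coro1c* was at 109, 120, 72.6 and 60.4, higher in A. The median differences (B minus A) of these lists were 0.00 and -0.02 on the log2(FPKM + 1) scale.

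Factors that start filaments were examined next. Of 9 subunits of the Arp2/3 complex, which builds branched networks, 3 were higher in B, 1 was higher in A and 5 overlapped. *Arpc1b* was at 24.5, 25.9, 42.4 and 70.7 FPKM and was the only subunit that was 2-fold apart. It was higher in B, as 4.58% of all genes were at 2-fold. With B2 left out its difference on the log2(FPKM + 1) scale was 0.73, below the criterion. *Arpc2*, the highest, was at 207, 221, 138 and 202, higher in A. Of 11 nucleation factors such as formins and WAVE proteins, 2 were higher in B, 6 were higher in A and 3 overlapped. Of all genes, 28.1% were higher in B and 32.0% in A. The formin *Daam1*, at 53.0, 56.5, 24.0 and 24.1 FPKM, was 2-fold higher in A, as 1.57% of all genes were. The formins *Fhod1*, at 5.49, 3.17, 11.8 and 10.9, and *Fhod3*, at 1.74, 1.67, 5.16 and 4.91, were 2-fold higher in B.

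Of 14 genes for proteins that act at filament ends or coat filaments, 10 were higher in B, 0 were higher in A and 4 overlapped. Of all genes, 28.1% were higher in B and 32.0% in A. The 3 that were 2-fold higher, against 4.58% of all genes, were tropomyosins, which wrap along filaments. *Tpm1* was at 125, 129.2, 229 and 512 FPKM, *Tpm2* at 21.8, 23.9, 53.3 and 86.6, and *Tpm4* at 77.4, 77.5, 137 and 252. *Capzb*, a subunit of capping protein, was at 181, 196, 231 and 243, higher in B without being 2-fold apart. In each of *Tpm1*, *Tpm2* and *Tpm4* B2 was also above B1. With B2 left out the count at 2-fold was 1 of 14, against 3.65% of all genes.

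Of 14 genes known as targets of SRF and its actin-sensing cofactors, 9 were higher in B, 2 were higher in A and 3 overlapped, with a median difference (B minus A) of 1.10 on the log2(FPKM + 1) scale. Of all genes, 28.1% were higher in B. At 2-fold, 8 of the 14 were higher in B, against 4.58% of all genes, or 4 with B2 left out, against 3.65%. *Tpm1* and *Tpm2* are 2 of these 8 and were counted above with the filament proteins. *Cnn1*, another of the 8, and *Tagln*, a target that overlapped, were counted above with the smooth muscle and pericyte markers. *Cyr61*, a matricellular protein, was at 15.4, 16.8, 63.9 and 148 FPKM, and *Tagln2*, a transgelin, at 20.6, 23.8, 33.9 and 174. *Cnn3*, the calponin of non-muscle cells, was at 387, 422, 350 and 411 and overlapped, and the 2 that were higher in A were *Vcl* and *Fhl1*. *Srf* itself was at 18.5, 16.3, 17.2 and 25.2 FPKM, with overlap. B2 was above B1 for all 14 targets, with a median of 0.76 (B2 minus B1) on that scale, and for 49.1% of all genes. The median difference of 1.10 between replicates would therefore be lower with B2 left out. Some of these genes are also expressed by mesenchymal cells, whose markers were higher in both libraries of B as given above, and the part of those cells and of library B2 in the list's difference was not tested. Over these lists together, SRF and its targets included, 73 genes were compared, of which 29 were higher in B, 15 were higher in A and 29 overlapped. The share without overlap, 60.3%, is near that of all genes (60.1%), but its direction differs. More of the 73 were higher in B than in A, whereas of all genes 28.1% were higher in B and 32.0% in A. At 2-fold, 12 of the 73 were higher in B, or 7 with B2 left out, and 1 was higher in A. Of the 12, 8 were SRF targets. The shares of all genes at 2-fold were 4.58% in B, or 3.65% with B2 left out, and 1.57% in A.

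**Figure D5:**
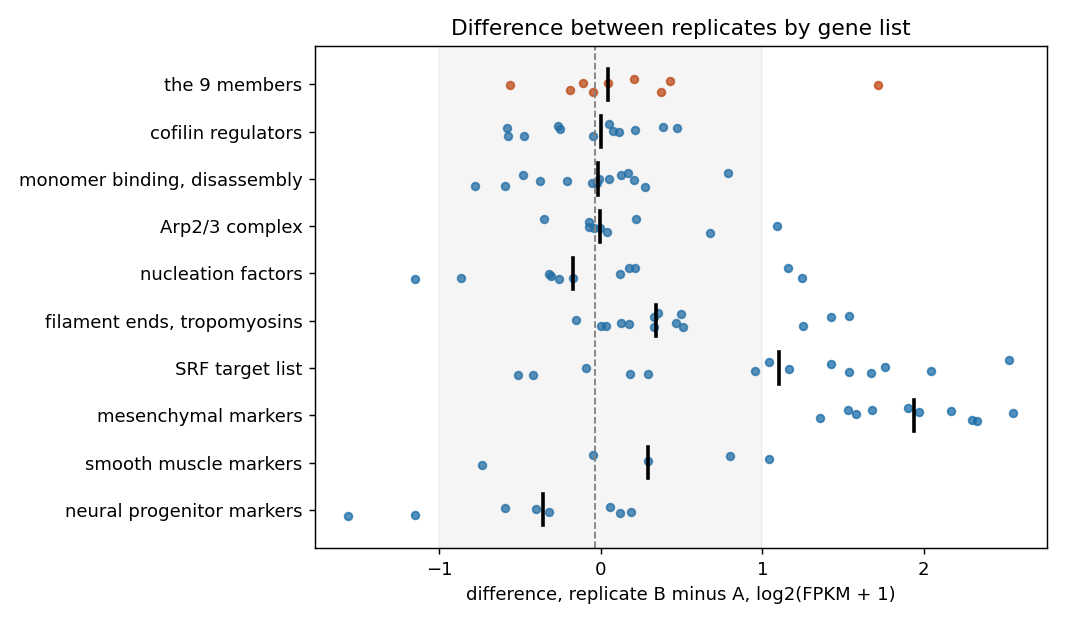
Difference between replicates (mean of B minus mean of A on the log2(FPKM + 1) scale) for the genes of each list, with 1 point per gene, a black bar at the list's median, a dashed line at the median of all genes compared (-0.03) and grey shading between -1 and 1. *Acta2* is the single member beyond the shading, and the list medians are largest for mesenchymal markers (1.94) and SRF targets (1.10). The latter includes library B2, which was above B1 for all 14 SRF targets.

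The genes whose levels followed a member most closely across the 4 libraries were sought among the 6636 genes that averaged 10 FPKM or more, by the distance between profiles of log2(FPKM + 1) after each was centred on its own mean. Nearest to *Actb* were *Fbxo2*, *Adrm1*, *Anp32e*, *Ddah2* and *Map1a*, with distances from 0.0367 to 0.0473. *Fbxo2* was at 144, 153, 149 and 200 FPKM, and like *Actb* stood higher in B2. Nearest to *Tmsb4x* was *Jam2*, at 72.8, 82.1, 58.0 and 47.5 FPKM (distance 0.0184), followed by *Osbpl9*, *Itm2b*, *Hist1h4b* and *Hist3h2ba*. Nearest to *Acta2* were *C1r*, *Emp1*, *Adamts2*, *S1pr3* and *Bgn*, at distances from 0.182 to 0.212, and *Bgn*, a proteoglycan of connective tissue, was at 99.9, 108, 282 and 422 FPKM. These profiles rest on 4 libraries that form technical pairs and differ in depth.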

How the data were processed

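PolyA-selected mRNA of rat neural progenitors was measured in 4 libraries, grouped by the replicate letter and technical number in the sample labels. STAR and the rn6 build were used by the authors, who deposited, for each library and gene, FPKM, TPM and coverage in the layout of StringTie. The deposited FPKM are scaled by the authors to transcript length and library depth, the deposited TPM have the same sum in each library, and the deposited coverage counts reads per base with no scaling for depth. The methods name Rsubread and DESeq2 for FPKM, and versions are not given in the sources used here. For *Pfn2* the deposited coverage per FPKM was 0.5 of the library median, as for about 1% of the rows.

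Rows with the same gene name were added up, technical libraries were averaged within a replicate, and differences were taken between replicate means of log2(FPKM + 1), a scale that understates the change of low genes. Genes averaging 1 FPKM or more were compared. Each pair of technical libraries is 1 replicate, so A against B sets 1 biological replicate against 1 and no test between them was possible. The members, the gene lists and the markers were chosen with earlier results of these data known. The genes named are the members, up to 4 genes of a list with the highest mean FPKM or a 2-fold difference, a few defining markers and small counts chosen after their values were seen, and the 5 genes nearest to *Actb*, *Tmsb4x* and *Acta2*. Alternatives were TPM, a pseudocount of 0.1, a fold of 1.5, no FPKM minimum, rescaled libraries and single libraries left out. Promoters came from RefSeq (GRCr8) and levels from rn6, and no coordinate was converted. Start-seq samples were not used here. The gene counting scripts were tested on simulated data. Python 3.11.15 with pandas 2.3.3, numpy 2.4.6 and matplotlib 3.10.9 was used.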

Additional observations from a re-analysis of the deposited data

Results flagged for a closer look

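*Actb* in library B2 was at 3709 FPKM, while the other 3 libraries lay between 2706 and 2795, so that the gap from B2 to the nearest library was 0.912 of the whole range, past Dixon's critical value for 4 values. This is a description and not a test, since the levels were known when the genes were chosen. Among 25 values examined (levels, ratios and sums of the members), this was the 1 that met the criterion, and chance alone gives about 1 in 20. The 4 libraries are technical pairs and not 4 independent samples. B2 was also the shallowest library, with 28.1% of the coverage per FPKM of B1, and the part of depth was not tested.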

How the results depend on the processing

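For 21 results, 105 values were recomputed with all replicates or with 1 library left out, of which 85 stayed within the SD between replicates or within 1.5 times the count and 20 moved. A further 28 values left out a whole replicate, which with 2 replicates always falls within the SD and shows nothing of stability. They put the mean FPKM of *Acta2* at 15.8 or 54.3 in place of 35.1 and the ratio of *Tmsb4x* to *Tmsb10* at 1.56 or 2.98 in place of 2.27. TPM is another unit, in which the mean was 11472 for *Tmsb4x*, 5237 for *Tmsb10*, 5000.4 for *Actb*, 1680.0 for *Actg1*, 0.230 for *Actc1*, 2081 for *Pfn1*, 197 for *Pfn2*, 2393 for *Cfl1* and 72.3 for *Cfl2*. With 1 library or replicate left out, the mean FPKM was between 1384 and 1467 for *Cfl1* and between 41.3 and 44.9 for *Cfl2*, whose replicate SD is small, and between 6 and 8 of the 9 members did not overlap, in place of 5, while the share of all genes without overlap went from 60.1% to between 72.6% and 88.0%. The count was 8 without B1 or without B2. Under a threshold of 1.5-fold, 0 members were that far apart between B1 and B2, in place of 3, against 17.7% of all genes. Alternatives added after the data were seen gave a ratio of *Actb* to *Actg1* of 4.06 with the chromosome 10 locus alone. Without B2, the genes at least 2-fold higher in B were 7 in place of 12 of the 73 listed genes, 4 in place of 8 for SRF targets, 1 in place of 3 for filament ends and tropomyosins and 9 in place of 10 for mesenchymal markers. Of all genes compared, 3.65% were 2-fold higher in B without B2, in place of 4.58%. Rescaling the libraries kept the direction for all 10 members, but *Pfn2* then overlapped between replicates, which left 4 of 9 without overlap. No paired analysis was possible because replicates A and B belong to 1 condition, so no groups share replicate numbers across conditions. Precision is limited by 2 biological replicates, and the part of the shallow library B2 in it was not tested.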
